A study of Mus musculus with 4 samples.

Results

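The 30 genes described here carry out glycolysis or respond to low oxygen: 13 enzymes of the route from glucose to lactate (Hk1, Hk2, Gpi1, Pfkl, Pfkp, Aldoa, Tpi1, Gapdh, Pgk1, Pgam1, Eno1, Pkm and Ldha), 2 enzymes that set its rate (Pfkfb3 and Pdk1), 3 transporters (Slc2a3, Slc16a1 and Slc16a3), and 12 genes of oxygen sensing and the hypoxia response (Hif1a, Egln3, Ankrd37, Bnip3, Ero1a, P4ha1, Adm, Ndrg1, Mif, Bhlhe40, Higd1a and Ddit4). They were taken by symbol from a list that was drawn up with earlier results of these data known; the rule itself used no measured value. The 30 symbols matched 31 of the 53647 rows of the gene table, because Aldoa stood on 2 rows. The row with more UMIs (unique molecular identifiers, 1 for each captured RNA molecule) was used for it.

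The counts came from single cells of the spinal cord of aged mice of the inbred strain C57BL/6J, 28 days after spinal cord injury. The segment taken was 2 mm long and included the lesion. All mice were injured, and they were treated either with an IgG antibody (2 libraries) or with an anti-CD8 antibody (2 libraries); CD8 sits on cytotoxic T cells as part of their antigen recognition. An enzyme kit released the cells, beads took away the myelin, and the cells were sequenced from the 3′ end of their RNA. No uninjured or young libraries were used here, the number of mice behind a library was not given in the sources used here, and p-values therefore measure the spread between libraries.

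Glycolysis breaks glucose down to pyruvate in the cytosol. Hexokinases trap the sugar, phosphofructokinases commit it to the pathway, and the lower enzymes recover the energy as ATP. Pyruvate then enters the mitochondria or is reduced to lactate, which monocarboxylate transporters carry across the cell membrane. When oxygen is scarce, prolyl hydroxylases no longer mark the transcription factor HIF-1α for degradation, and it binds a short DNA element in the promoters of many glycolytic genes. Microglia, macrophages and T cells are known to raise glycolysis on activation, and brain and cord capillaries pass glucose and lactate to the tissue.

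Promoters of 6 members are shown because the results turn on these genes: Ldha, Pgk1 and Tpi1 as lower enzymes that were higher in Spp1-high cells than in microglia, Hk2 for the antibody comparison, and Slc16a1 and Ankrd37 for the vessels. Each is the 250 bases before the RefSeq transcription start in build GRCm38.p6, written 5′ to 3′ on the gene's strand. Capitals mark ACGTG or GCGTG, the core letters of the hypoxia response element, on either strand; on the opposite strand they read CACGT or CACGC. The stretches lay at chr7:46845554-46845803 (plus strand), chrX:106186850-106187099 (plus), chr6:124814159-124814408 (minus), chr6:82774455-82774704 (minus), chr3:104638414-104638663 (plus) and chr8:45999851-46000100 (minus).
Ldha: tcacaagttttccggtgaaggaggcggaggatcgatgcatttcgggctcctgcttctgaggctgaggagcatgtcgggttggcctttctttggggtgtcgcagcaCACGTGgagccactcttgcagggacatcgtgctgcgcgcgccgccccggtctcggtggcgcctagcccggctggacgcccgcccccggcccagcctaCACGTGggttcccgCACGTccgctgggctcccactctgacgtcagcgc
Pgk1: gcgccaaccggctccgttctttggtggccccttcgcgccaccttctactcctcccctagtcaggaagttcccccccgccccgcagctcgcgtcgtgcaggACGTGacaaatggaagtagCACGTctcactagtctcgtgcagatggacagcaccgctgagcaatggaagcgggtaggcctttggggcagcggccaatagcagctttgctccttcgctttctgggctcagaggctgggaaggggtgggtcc
Tpi1: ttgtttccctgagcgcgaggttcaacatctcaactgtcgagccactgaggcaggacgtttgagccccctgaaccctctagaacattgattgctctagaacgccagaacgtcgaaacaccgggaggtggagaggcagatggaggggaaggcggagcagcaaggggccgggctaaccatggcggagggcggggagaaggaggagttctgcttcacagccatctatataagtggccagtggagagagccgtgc
Hk2: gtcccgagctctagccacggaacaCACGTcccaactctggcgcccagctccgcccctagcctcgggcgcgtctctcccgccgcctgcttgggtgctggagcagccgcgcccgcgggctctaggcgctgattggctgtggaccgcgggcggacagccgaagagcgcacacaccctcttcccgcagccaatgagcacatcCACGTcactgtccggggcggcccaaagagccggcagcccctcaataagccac
Slc16a1: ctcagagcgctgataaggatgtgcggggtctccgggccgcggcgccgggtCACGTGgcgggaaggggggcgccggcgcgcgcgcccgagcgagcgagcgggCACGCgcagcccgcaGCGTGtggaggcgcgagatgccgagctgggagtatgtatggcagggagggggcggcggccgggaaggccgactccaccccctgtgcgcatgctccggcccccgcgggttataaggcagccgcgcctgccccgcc
Ankrd37: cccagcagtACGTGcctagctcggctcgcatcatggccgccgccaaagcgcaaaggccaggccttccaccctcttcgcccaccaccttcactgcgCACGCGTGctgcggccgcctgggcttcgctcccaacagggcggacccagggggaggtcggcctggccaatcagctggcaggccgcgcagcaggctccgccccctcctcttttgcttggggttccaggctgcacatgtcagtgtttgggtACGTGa
In these stretches Ldha held 5 matches, Slc16a1 and Ankrd37 4 each, Pgk1 and Hk2 2 each, and Tpi1 0. A CACGTG was counted once on each strand. Over windows of 300 bases, from 250 before the start to 50 after it, 27 of the 30 members had an entry; Slc2a3, Ndrg1 and Bhlhe40 had none. Of the members' 36 windows, 30 (83.3%) held at least 1 match, beside 43.8% of all 32851 windows. At least 3 matches stood in 13 of the 36 (36.1%), beside 8.93% of all windows. ACGTG alone was in 61.1% of the members' windows and 19.6% of all, and GCGTG in 55.6% and 32.4%. Base composition was not matched, and a match in letters is not a binding site.

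The 4 libraries held between 152457679 and 170539226 UMIs in 6586 to 8482 cell barcodes. After filters on quality and doublets 27695 cells were kept, and any pair of libraries shared 7 to 23 barcodes. Cells were clustered without the 30 members, and a cluster received a cell-type name only where its markers allowed it. This left 15 classes with at least 20 cells in every library. Named classes were microglia, Spp1-high myeloid cells, monocyte/macrophage-like cells, T cells, endothelial cells, pericyte or smooth muscle cells, ependymal cells, neurons and proliferating cells, a cluster led by Top2a and Mki67 that also carried S100a8, S100a9 and Camp. Clusters without a name kept their number: cluster 0 was led by Olr1, Il12b, Cxcl2 and Il1b, cluster 2 by Apoc4, Apoe and Ms4a7, cluster 9 by Gpnmb, Atp6v0d2 and Lyz2, cluster 10 by Fgf13, Csf1 and Lpl, cluster 11 by Cst7 and Tyrobp, and cluster 16 by Rgs5 together with endothelial genes. Cluster 11 had a median UMI count of 0.16 times that of its libraries, against 1.44 times in cluster 0. The pericyte or smooth muscle class joined cluster 22, led by Atp13a5, Vtn and Abcc9, with cluster 24, led by Acta2, Tagln and Tpm2. Their median UMI counts were 0.30 and 0.74 times those of their libraries. Astrocytes, oligodendrocyte precursors, fibroblasts and NK cells were present but below 20 cells in at least 1 library and were not tested. Levels are given in CPM, the UMIs of a gene divided by the UMIs of its class in a library and scaled to 1000000. They were not divided by gene length or corrected for capture, so they are compared between classes for 1 gene and not between genes. Shares within a gene family and sums over genes are shares and sums of UMIs. They are likewise meant for comparison between classes. Values in a row of 4 are IgG replicates 1 and 2, then anti-CD8 replicates 1 and 2.

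**Figure D1:**
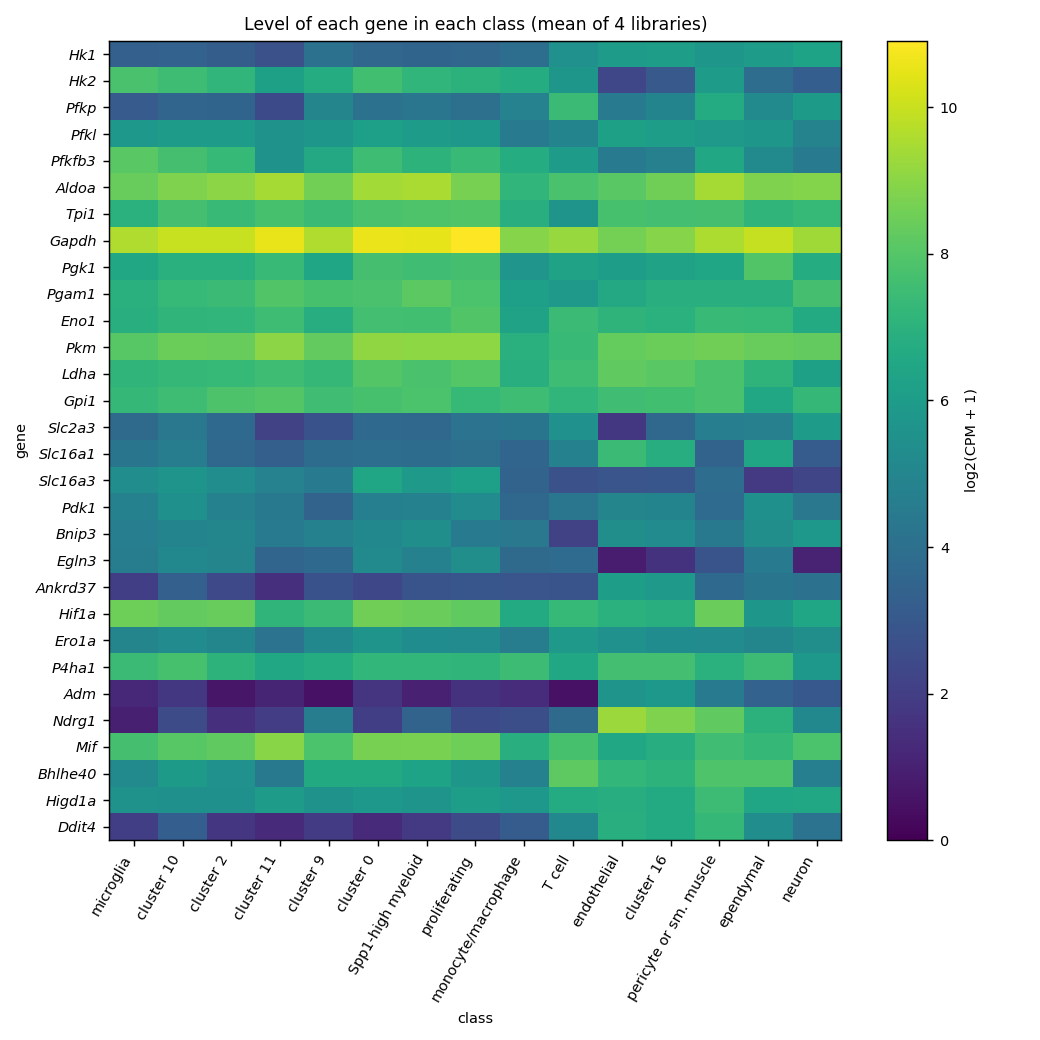
Heat map of the mean level of each of the 30 genes (rows) in each of the 15 classes (columns) over the 4 libraries, as log2(CPM + 1) from 0 (dark) to the brightest colour. Hk2, Pfkfb3 and Hif1a were bright in the microglia column and less so in the monocyte/macrophage column. Hif1a was also bright in the pericyte or smooth muscle column. Slc16a1, Ankrd37, Adm, Ndrg1 and Ddit4 were bright in the endothelial column, and Ndrg1 and Ddit4 also in the pericyte or smooth muscle column.

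Hexokinase, which phosphorylates glucose on entry, was present in different forms in different cells. Hk2, the inducible form, had 204, 236, 201 and 218 CPM in microglia and 2.64, 5.04, 4.30 and 4.18 CPM in endothelial cells. Hk1, the common form of neurons and vessels, ran the other way, with 9.85, 8.10, 8.38 and 10.4 CPM in microglia against 64.0, 66.8, 60.8 and 63.7 CPM in endothelial cells. No library of one class overlapped the other class for either gene. As a share of the UMIs of Hk1, Hk2 and Hk3 together, Hk2 took 83.7% ± 0.622 (SD, n = 4 libraries) in microglia, 80.2% ± 1.09 in cluster 0, 73.3% ± 2.01 in Spp1-high cells, 18% ± 4.12 in ependymal cells, 9.46% ± 4.12 in neurons and 5.82% ± 1.33 in endothelial cells. T cells stood between, at 50.8% ± 13.9, and so did pericyte or smooth muscle cells, whose libraries ranged from 31.0% to 63.4%. Microglial RNA was also read in the other classes: the summed level of the microglial markers was 2.61% to 3.83% of that in microglia in endothelial cells, 4.42% to 6.86% in ependymal cells, 2.79% to 7% in neurons and 7.2% to 13.8% in pericyte or smooth muscle cells. That share of the microglial Hk2 level came to between 5.25 and 8.35 CPM in endothelial cells, which was above the measured Hk2 level in all 4 libraries. In neurons and in ependymal cells it was above the measured level in 2 of 4 libraries, and in pericyte or smooth muscle cells, at 15.7 to 28.1 CPM, in 0 of 4. In IgG replicate 2 of the latter class it was 28.1 CPM beside a measured 29.5 CPM. Other myeloid classes carried these markers at lower levels, such as 38.2% to 46.8% of microglia in Spp1-high cells. RNA from such cells may therefore be under-counted here.

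Phosphofructokinase, the committing step, also differed in form. Pfkp, the platelet form, had 158, 167, 179 and 177 CPM in T cells and 8.48, 7.74, 6.80 and 8.49 CPM in microglia. Pfkl, the liver form, had 24.4, 30.6, 31.8 and 30.9 CPM in T cells and 56.0, 58.7, 51.8 and 52.1 CPM in microglia. T cells were thus high in the one and low in the other, with no overlap between the classes. Pfkp made up 84.1% ± 0.572 of the Pfkl, Pfkp and Pfkm UMIs in T cells, 58.8% ± 3.86 in pericyte or smooth muscle cells, 53.3% ± 13.4 in monocyte/macrophage-like cells, 48.8% ± 8.41 in neurons and 12.3% ± 1.18 in microglia. Pfkfb3, which makes the activator of phosphofructokinase, was at 267, 271, 287 and 272 CPM in microglia. It lay lower in Spp1-high cells, at 136, 120, 130 and 138 CPM, and lower again in endothelial cells, at 20.5, 19.5, 25.1 and 17.8 CPM.

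The lower enzymes were higher in Spp1-high cells than in microglia. Aldolase A (Aldoa), which splits the sugar, had 358, 346, 307 and 323 CPM in microglia and 721, 755, 724 and 709 CPM in Spp1-high cells. Pgk1, which makes the first ATP, had 97.5, 92.4, 86.1 and 94.2 CPM in microglia and 180, 199, 186 and 196 CPM in Spp1-high cells. Every Spp1-high library lay above every microglial library for both genes. The same held for Tpi1, Gapdh, Pgam1, Eno1, Pkm and Ldha, and also for Gpi1, an upper step. Pyruvate kinase (Pkm), the last step to pyruvate, had 261, 280, 250 and 271 CPM in microglia, 484, 564, 558 and 549 CPM in cluster 0 and 83.4, 138, 129 and 130 CPM in monocyte/macrophage-like cells. Tpi1, which interconverts the 2 triose phosphates, was lowest in T cells, at 34.6, 42.8, 60.8 and 58.0 CPM, against 124, 119, 126 and 133 CPM in microglia. Aldoa accounted for 99.8% ± 0.0422 of Aldoa and Aldoc UMIs in microglia and for 74.3% ± 6.08 in ependymal cells, where the astroglial form Aldoc reached 159 ± 60.5 CPM.

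Lactate genes differed between endothelial cells and microglia. Ldha, the form of lactate dehydrogenase that favours lactate, had 322, 294, 316 and 293 CPM in endothelial cells and 142, 144, 135 and 137 CPM in microglia. It made up 94.6% ± 0.356 of Ldha and Ldhb UMIs in endothelial cells, 89.5% ± 2.74 in T cells, 55.5% ± 0.967 in cluster 0, 34.0% ± 2.19 in microglia and 30.1% ± 3.11 in neurons. Slc16a1, which encodes the monocarboxylate transporter MCT1, had 200, 139, 167 and 173 CPM in endothelial cells, 85.5, 80.7, 95.5 and 83.0 CPM in ependymal cells and 14.5, 17.5, 20.0 and 19.2 CPM in microglia. Slc16a3, which encodes the lactate exporter MCT4, had 82.7, 98.5, 82.6 and 82.4 CPM in cluster 0, 35.7, 47.0, 34.4 and 42.2 CPM in microglia and 5.43, 6.54, 5.94 and 7.06 CPM in endothelial cells. The 2 transporters thus had opposite orders in endothelial cells and microglia, though over 20 clusters their rank correlation was only −0.188. Slc16a1 took 96.9% ± 2.77 of their UMIs in ependymal cells and 96.4% ± 0.784 in endothelial cells, but 31.0% ± 4.17 in microglia and 14.2% ± 1.89 in cluster 0. Pdk1, which keeps pyruvate out of the mitochondria, had between 8.57 and 11.3 CPM in cluster 9 and between 36.2 and 48.2 CPM in ependymal cells. Slc2a3, the neuronal glucose transporter GLUT3, was at 70.3, 65.02, 57.5 and 58.6 CPM in neurons, 35.4, 46.1, 45.5 and 50.3 CPM in T cells and 2.05, 1.499, 2.77 and 3.14 CPM in endothelial cells. GLUT1 (Slc2a1), which is not among the 30 genes, had 1914 ± 50.9 CPM in endothelial cells and 118 ± 8.09 CPM in microglia.

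**Figure D2:**
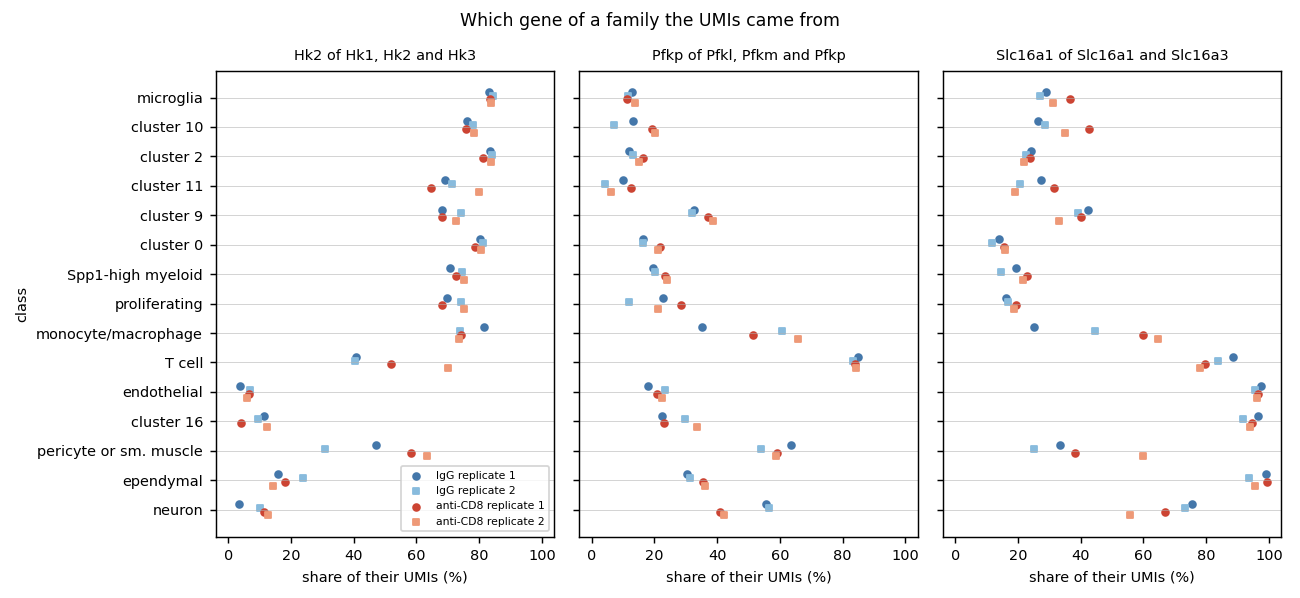
Share of UMIs taken by 1 gene of a pair or family, in percent, in each class; points are the 4 libraries. Hk2 shares were high in microglia (mean 83.7%) and low in endothelial cells (5.82%), and Slc16a1 shares ran the other way (31.0% and 96.4%).

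Hif1a, the oxygen-regulated subunit of HIF-1, had 363, 368, 356 and 368 CPM in microglia, 382, 376, 365 and 381 CPM in cluster 0 and 117, 132, 141 and 111 CPM in endothelial cells. In pericyte or smooth muscle cells Hif1a lay between 264 and 382 CPM. Its relative Epas1 (HIF-2α), not among the 30, had 1127 ± 40.5 CPM in endothelial cells and 2.36 ± 0.662 CPM in microglia. Hif1a thus made up 99.4% ± 0.179 of Hif1a and Epas1 UMIs in microglia and 10.0% ± 1.23 in endothelial cells. Egln3, a HIF prolyl hydroxylase, had 25.2, 25.5, 18.9 and 24.1 CPM in microglia and 0.734, 0.681, 0.922 and 0.915 CPM in endothelial cells, from 5, 5, 9 and 7 UMIs. The microglial-marker share of the microglial Egln3 level, 0.492 to 0.923 CPM, was as high as the endothelial level or higher in 3 of 4 libraries. Of all Egln1, Egln2 and Egln3 UMIs, Egln3 took 28.4% ± 3.05 in microglia, 33.0% ± 4.6 in cluster 0 and 0.519% ± 0.0617 in endothelial cells.

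Of the 12 genes of oxygen sensing and the hypoxia response, 8 were higher in endothelial cells than in microglia in the fit described further on. There 3 were lower (Hif1a, Egln3 and Mif) and 1 was not called. Of all genes in that comparison, 41.5% were higher and 33.4% lower. The next 4 genes were picked for their high levels in vessels. Ndrg1, a stress-response gene, had 525, 637, 688 and 635 CPM in endothelial cells, 365, 283, 314 and 258 CPM in pericyte or smooth muscle cells and 0.838, 1.05, 0.928 and 0.986 CPM in microglia. Ddit4, an inhibitor of mTORC1, had 106, 120, 119 and 110 CPM in endothelial cells, 189, 113, 178 and 127 CPM in pericyte or smooth muscle cells and 2.13, 3.23, 3.37 and 3.59 CPM in microglia. Both vessel classes lay far above microglia in every library for both genes. Adm, which encodes the vasodilator peptide adrenomedullin, had 37.3, 49.6, 48.0 and 64.0 CPM in endothelial cells and 0.990, 1.76, 1.10 and 1.59 CPM in microglia. Ankrd37, an ankyrin-repeat gene induced by HIF-1, had 55.3, 77.4, 75.5 and 66.9 CPM in endothelial cells and 2.61, 3.20, 2.98 and 3.51 CPM in microglia.

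The other hypoxia-responsive members had patterns of their own. Bhlhe40, a transcriptional repressor of the circadian and hypoxia pathways, had 259, 309, 317 and 299 CPM in T cells, 363, 166, 212 and 226 CPM in ependymal cells and 38.9, 41.7, 32.7 and 32.2 CPM in microglia. Mif, a cytokine gene, had 412, 429, 403 and 442 CPM in Spp1-high cells, 219, 197, 179 and 218 CPM in microglia and 91.6, 90.3, 92.4 and 96.1 CPM in endothelial cells. Bnip3, a gene of mitophagy, was lowest in T cells, at 1.57, 4.78, 2.82 and 4.42 CPM. In neurons Bnip3 had 56.9, 53.7, 64.3 and 46.6 CPM. P4ha1, a collagen prolyl hydroxylase, had between 163 and 177 CPM in microglia and between 190 and 205 CPM in endothelial cells. Ero1a, an oxidase of the endoplasmic reticulum, had between 26.7 and 34.1 CPM in microglia and between 44.5 and 54.7 CPM in cluster 0. Higd1a, a mitochondrial respiration factor, had between 42.7 and 47.7 CPM in microglia and between 103 and 117 CPM in endothelial cells.

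The summed level of the 13 enzymes described how far the route as a whole differed between classes. It was 2404 ± 103 CPM in microglia (SD, n = 4 libraries) and 1530 ± 56.2 CPM in monocyte/macrophage-like cells, the lowest class. T cells had 1963 ± 103 CPM and endothelial cells 2155 ± 70.4 CPM. The highest sums were in proliferating cells (4400 ± 316 CPM), cluster 0 (4338 ± 115 CPM), Spp1-high cells (4277 ± 91.6 CPM) and cluster 11 (4081 ± 461 CPM), and these 4 classes did not differ beyond their spread. Their order rested on Gapdh: without it the sum was 174% of that of microglia in Spp1-high cells, 172% in cluster 0, 158% in cluster 11 and 152% in proliferating cells. Cluster 2, pericyte or smooth muscle cells and cluster 10 were likewise close, at 3085 ± 72.2, 3075 ± 225 and 3038 ± 162 CPM. Taken library by library as a share of microglia, the sum was 183% in proliferating cells, 181% ± 9.91 in cluster 0, 178% ± 8.29 in Spp1-high cells, 81.8% ± 6.96 in T cells and 63.7% in monocyte/macrophage-like cells. Within microglia, cluster 1, which was led by Ccl4, Ccl3 and P2ry12, had a sum of 1793 CPM, against 2665 CPM in cluster 3, 2546 CPM in cluster 4 and 2847 CPM in the interferon-high cluster 13. The order of endothelial cells and microglia depended on Gapdh too: without it the endothelial sum was 108% of that of microglia, and with it 89.9%.

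**Figure D3:**
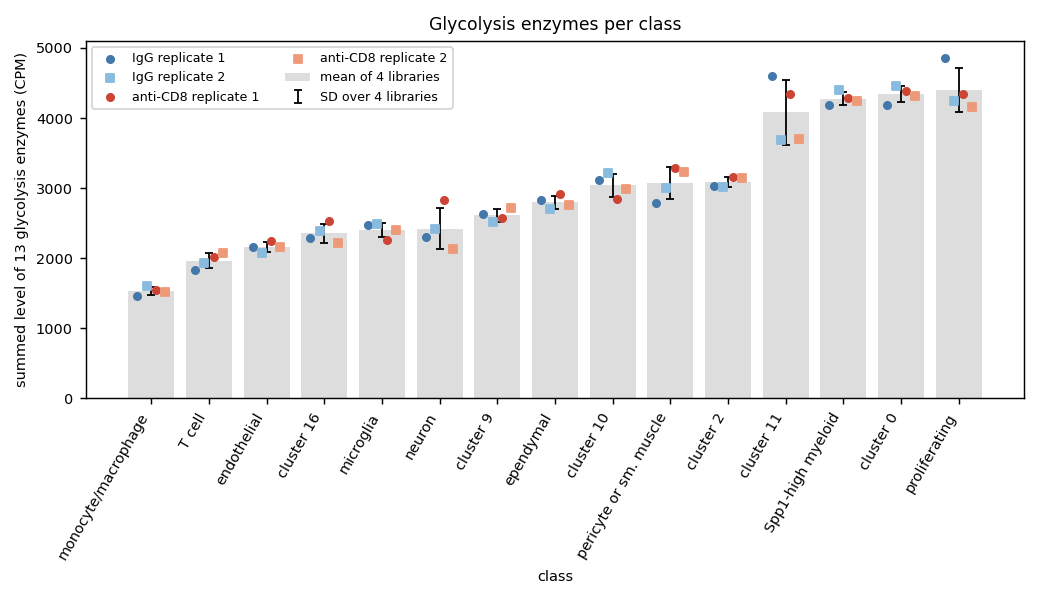
Summed CPM of the 13 glycolysis enzymes in each of the 15 classes, on an axis from 0; bars are the mean of 4 libraries, error bars its SD and points the libraries. The lowest library was 4191 CPM in cluster 0 and 4180 CPM in Spp1-high cells, and every monocyte/macrophage-like library lay below every microglial library.

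Not every enzyme followed the sum. Over 20 clusters, which share libraries and differ in depth, the rank correlation (Spearman's rho, on mean log2(CPM + 1)) with the sum was 0.922 for Pkm, 0.917 for Gapdh, 0.898 for Pgk1 and 0.893 for Aldoa, genes that are part of it. It was −0.496 for Hk1 and −0.406 for Pfkp. Over the 12 myeloid clusters alone it was 0.979 for Pgk1 and 0.944 for Ldha, but −0.462 for Hk2 and −0.531 for Pfkfb3. Among members outside the sum, Mif had a rho of 0.862 and Slc16a3 0.740 over the 20 clusters, and Ddit4 −0.562. The closest pairs of members were Tpi1 with Pkm (0.920), Gapdh with Pgk1 (0.911), Gapdh with Mif (0.874), Aldoa with Pgk1 (0.857) and Pfkfb3 with Hif1a (0.856). Ldha stood apart from the other lower enzymes over the 20 clusters, with a rho of 0.308 with the sum and 0.0541 with Pgk1. The most opposed were Pfkfb3 with Ndrg1 (−0.896) and Hif1a with Ddit4 (−0.768). Among other genes with a mean of at least 50 CPM, Ddost (0.923), Spp1 (0.920), Tmed3 (0.913), Tmem256 (0.889) and Sdhb (0.886) had the pattern most like the sum. These correlations are descriptions.

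Differences between classes were then fitted in 1 edgeR quasi-likelihood model with the library as a block. A gene was called at a Benjamini-Hochberg adjusted p under 0.05 over the 18723 genes tested, and all 30 members were tested. The members had no part in the clustering, but other genes of the same cells did, so these tests compare classes as defined in these cells. The scaling of the libraries mattered for the background: with RLE size factors in place of TMM the median of all genes moved up by 0.13 on the log2 scale in the T cell and endothelial comparisons with microglia and by 0.16 for monocyte/macrophage-like cells, and it moved by −0.11 for endothelial against pericyte or smooth muscle cells.

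In Spp1-high cells, 22 of the 30 genes were higher than in microglia and 2 were lower. Of all genes tested, 27.3% were higher and 20.9% lower (48.2% in either direction). The median log2 difference of the members was 0.83, beside 0.02 over all genes. Ndrg1 had the largest difference, 3.72 (SE 0.20, adjusted p = 1.41e-23), from low levels in both classes. Pgam1 was higher by 1.52 (SE 0.07), Pfkp by 1.52 (SE 0.13), Aldoa by 1.43 (SE 0.09), Bhlhe40 by 1.43 (SE 0.13), Mif by 1.36 (SE 0.08) and Pgk1 by 1.34 (SE 0.08). Ankrd37 (1.32), Pkm (1.30), Tpi1 (1.24), Gapdh (1.20), Bnip3 (1.09) and Eno1 (1.03) followed on the same log2 scale. The 2 lower genes were Pfkfb3, at −0.76 (SE 0.10, adjusted p = 9.25e-09), and Hk2, at −0.28 (SE 0.12, adjusted p = 0.0384); the call of Hk2 was lost without IgG replicate 1 (adjusted p = 0.0752) and without anti-CD8 replicate 1 (0.0551). Hif1a (0.20), Slc2a3 (0.14), P4ha1 (0.10), Ddit4 (0.08), Slc16a1 (−0.09) and Adm (−0.11) were not called. With RLE factors 46.2% of all calls were higher, against 56.7% with TMM, and 21 members were higher and 2 lower.

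The leading genes of cluster 0 included Il12b, Cxcl2 and Il1b, but microglia were not a cytokine-low reference. The mean log2 difference of cytokine genes such as Il1b and Tnf from the other clusters was 1.67 in cluster 0. In the microglial clusters it was 1.69 (cluster 1), 2.06 (cluster 3), −0.09 (cluster 4) and 1.12 (cluster 13). Cluster 0 had 23 members higher and 2 lower than microglia. All genes gave 20.7% higher and 17.6% lower (38.4% in either direction). The median of the members was 0.85 on the log2 scale, and that of all genes −0.02. Beside Ndrg1 (1.95, SE 0.25), the genes that were higher by at least 1 were Bhlhe40 (1.64), Pgk1 (1.37), Slc16a3 (1.36, SE 0.09), Pfkp (1.28), Aldoa (1.25), Pkm (1.25), Mif (1.24), Gapdh (1.21), Ldha (1.09), Pgam1 (1.08), Tpi1 (1.04) and Eno1 (1.02). Ddit4 was lower, at −0.85 (SE 0.18, adjusted p = 8.81e-05) and Pfkfb3 at −0.36 (SE 0.10, adjusted p = 0.00408). Hk2 (0.07), Pdk1 (0.17), Slc2a3 (0.18), P4ha1 (0.01) and Slc16a1 (−0.09) were not called. Hif1a, at 0.28 (SE 0.10, adjusted p = 0.0261), lost its call with RLE factors (adjusted p = 0.105) and in 3 of the 4 fits that left out 1 library (adjusted p from 0.0796 to 0.0805 without IgG replicate 2, anti-CD8 replicate 1 or anti-CD8 replicate 2). With RLE factors 43.1% of all calls were higher, against 54.0% with TMM, and 22 members were higher and 2 lower.

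Cluster 9, led by Gpnmb, Atp6v0d2 and Lyz2, was split. There 15 members were higher and 9 lower than in microglia, beside 22.7% and 22% of all genes (44.7% in either direction), with a median of 0.21 for the members and −0.01 for all. Ndrg1 was higher by 4.84 (SE 0.21), Pfkp by 2.13 (SE 0.14), Bhlhe40 by 1.62 (SE 0.14), Ankrd37 by 1.09 (SE 0.19) and Pgam1 by 1.00 (SE 0.08). Pfkfb3 was lower, at −1.34 (SE 0.11), Adm at −1.30 (SE 0.52), Pdk1 at −1.18 (SE 0.13) and Slc2a3 at −1.0 (SE 0.16), and Hif1a, at −0.91, and Hk2, at −0.80, were lower as well. Adm rested on 0 to 7 UMIs per library in cluster 9, and its call was lost without IgG replicate 2 (adjusted p = 0.130) and without anti-CD8 replicate 1 (0.106). Gapdh (0.22), Pfkl (0.18), Ddit4 (0.14), Pgk1 (0.12), Eno1 (0.12) and Slc16a1 (−0.19) were not called. Of the upper steps, Hk2 and Pfkfb3 were lower, while Pfkp, Hk1 (0.98, adjusted p = 1.87e-10) and Gpi1 (0.50, adjusted p = 2.02e-09) were higher. The count of higher members depended on how the cells were clustered: it was 8 with doublets kept and 9 with the members kept in the clustering, with 9 lower in both. With doublets kept Aldoa, Bnip3, Ero1a, Higd1a, Ldha, Mif and Pkm lost their calls (Mif 0.04, adjusted p = 0.794).

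Monocyte/macrophage-like cells, told by markers such as Mrc1 and Pf4, had 3 members higher and 13 lower than microglia. Of all genes, 9% were higher and 14.1% lower (23.1% in either direction), and the medians were −0.56 for the members and −0.21 for all. Slc16a3 was lower, at −2.01 (SE 0.30), Hif1a at −1.90 (SE 0.16), Pfkl at −1.38 (SE 0.20), Pfkfb3 at −1.35 (SE 0.16), Pdk1 at −1.31 (SE 0.31), Aldoa at −1.25 (SE 0.13), Pkm at −1.14 (SE 0.12) and Hk2 at −1.05 (SE 0.18). The 3 higher genes were Pfkp (1.82, SE 0.32, adjusted p = 1.04e-05), Ndrg1 (2.41, SE 0.84, adjusted p = 0.0281) and Ddit4 (1.35, SE 0.45, adjusted p = 0.0220). Ndrg1 rested on 1, 9, 2 and 1 UMIs, and without IgG replicate 2 it had 1.17 with an adjusted p of 0.636. Ddit4 rested on 4, 2, 5 and 9 UMIs and lost its call in 3 of the 4 fits that left out 1 library, where the adjusted p was 0.0916 (IgG replicate 1 left out), 0.0705 (replicate 1 of anti-CD8) and 0.228 (its replicate 2). The class had 34, 47, 74 and 76 cells, and its leading genes also included H2-Eb1, H2-Aa and Cd74. The summed level of the microglial markers in it was 39.5% to 47.7% of that in microglia. The part of this RNA in the comparison was not tested. With RLE factors 6 members were higher and 13 lower, and 56.4% of all calls were higher, against 39.0% with TMM. Egln3 (−0.95), Slc16a1 (−0.64), Ero1a (−0.52), Bhlhe40 (−0.51), Ldha (−0.29), Bnip3 (−0.27), Tpi1 (−0.13), P4ha1 (0.01), Adm (0.18), Gpi1 (0.21), Higd1a (0.23), Slc2a3 (0.36), Hk1 (0.70) and Ankrd37 (0.91) were not called.

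T cells had 11 members higher and 16 lower than microglia, beside 30.6% and 32.3% of all genes (62.9% in either direction). The median was −0.49 for the members and −0.03 for all genes. Pfkp was higher by 4.25 (SE 0.13, adjusted p = 1.10e-35), Ndrg1 by 3.45 (SE 0.32), Ddit4 by 3.25 (SE 0.15), Bhlhe40 by 2.86 (SE 0.14), Hk1 by 2.10 (SE 0.11), Slc2a3 by 1.62 (SE 0.12) and Higd1a by 1.03 (SE 0.08). Slc16a3 was lower, at −3.03 (SE 0.19), Bnip3 at −2.92 (SE 0.23), Hk2 at −2.30 (SE 0.15), Pfkfb3 at −2.27 (SE 0.13), Tpi1 at −1.55 (SE 0.11), Hif1a at −1.37 (SE 0.11), Egln3 at −1.22 (SE 0.21), Pgam1 at −1.21 (SE 0.09), P4ha1 at −1.08 (SE 0.09) and Pfkl at −1.07 (SE 0.11). Mif (−0.13), Ldha (0.20) and Adm (−1.18, from 0 to 7 UMIs per library) were not called. The summed RNA of the microglial markers in T cells was 1.67% to 3.49% of that in microglia, and that share of the microglial Hk2 level came to between 3.94 and 7.61 CPM, below the T-cell level in all 4 libraries.

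Among the members, Ndrg1 and Hk2 set endothelial cells furthest apart from microglia, in opposite directions. Against microglia, 13 members were higher and 11 lower, beside 41.5% and 33.4% of all genes (74.9% in either direction), with a median of −0.02 for the members and 0.12 for all. Ndrg1 was higher by 9.03 (SE 0.18, adjusted p = 3.86e-46), Ddit4 by 4.90 (SE 0.11), Adm by 4.87 (SE 0.23), Ankrd37 by 4.16 (SE 0.12), Slc16a1 by 2.95 (SE 0.10), Hk1 by 2.48 (SE 0.09), Bhlhe40 by 1.73 (SE 0.13) and Pfkp by 1.16 (SE 0.15). Hk2 was lower, at −6.01 (SE 0.19, adjusted p = 8.52e-36), Egln3 at −5.10 (SE 0.26), Pfkfb3 at −4.02 (SE 0.13), Slc16a3 at −2.96 (SE 0.14), Slc2a3 at −2.71 (SE 0.18), Hif1a at −1.85 (SE 0.11), Mif at −1.44 (SE 0.08) and Gapdh at −1.27 (SE 0.10). Eno1 (−0.10), Pdk1 (−0.09), P4ha1 (−0.09), Pkm (−0.03), Gpi1 (−0.01) and Pfkl (0.09) were not called.

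Against pericyte or smooth muscle cells, the neighbours of endothelium in the vessel wall, 8 members were higher in endothelial cells and 14 lower, beside 22.6% and 20.7% of all genes (43.3% in either direction). The median was −0.24 for the members and 0.11 for all genes. Slc16a1 was higher by 4.12 (SE 0.24), Ankrd37 by 2.50 (SE 0.26), Adm by 1.23 (SE 0.31), Pdk1 by 1.19 (SE 0.29), Bnip3 by 1.03 (SE 0.26) and Ndrg1 by 1.02 (SE 0.14). Hk2 was lower, at −3.90 (SE 0.34), Slc2a3 at −3.29 (SE 0.35), Egln3 at −2.76 (SE 0.84), Pfkp at −2.25 (SE 0.20), Pfkfb3 at −2.10 (SE 0.22), Hif1a at −1.43 (SE 0.13), Aldoa at −1.30 (SE 0.11), Slc16a3 at −1.18 (SE 0.38) and Mif at −1.0 (SE 0.11). Egln3 lost its call without anti-CD8 replicate 2 (−2.16, adjusted p = 0.133), and Slc16a3 with either first replicate left out (adjusted p = 0.0571 without that of IgG, 0.147 without that of anti-CD8). With doublets kept both were near 0, at −0.22 for Egln3 and −0.06 for Slc16a3. Pgk1 (−0.32), Eno1 (−0.24), Pgam1 (−0.24), Pkm (−0.18), Tpi1 (0.05), Ero1a (0.25), Hk1 (0.27) and Pfkl (0.32) were not called. With RLE factors 8 members were higher and 18 lower.

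Other genes of the same routes, 65 symbols in 5 lists that hold none of the 30, were read in the same fits. In Spp1-high cells 30 of the 61 tested were higher than in microglia and 5 lower, with a median of 0.26. Of all genes, 27.3% were higher and 20.9% lower, with a median of 0.02. The pentose phosphate genes, which branch off glycolysis to make NADPH, had 6 of 7 higher there with a median of 0.62. In cluster 0 and in cluster 9, 5 of 7 were higher, beside 20.7% and 22.7% of all genes. In endothelial cells 25 of the 61 were higher and 25 lower than in microglia, beside 41.5% and 33.4% of all genes. In T cells 23 were higher and 21 lower, beside 30.6% and 32.3%. The genes named next were picked after their values were seen. Vegfa, the vessel growth factor, was higher than in microglia by 1.93 (SE 0.12) in Spp1-high cells, 1.67 (SE 0.13) in cluster 0 and 3.57 (SE 0.13) in cluster 9, and lower, at −2.39 (SE 0.21) in endothelial cells. Hilpda, a lipid droplet gene, was higher by 1.61 (SE 0.16) in Spp1-high cells, 1.62 (SE 0.16) in cluster 0 and 2.07 (SE 0.17) in cluster 9. Ldhb, the form of lactate dehydrogenase that favours pyruvate, was lower, at −4.25 (SE 0.10) in endothelial cells and −3.88 (SE 0.12) in T cells.

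Anti-CD8 treatment was compared with IgG within each of the 15 classes, with edgeR on the summed UMIs of the 2 libraries per group. Over 423 tests of a member in a class, 37 (8.75%) had an unadjusted p under 0.05 with edgeR, beside 6.2% of the tests of all genes, and 18 (4.26%) with DESeq2, beside 2.29%. Only 1 was called by either tool, Hk2 in T cells. It had 31.4 and 29.8 CPM in the IgG libraries (80 and 156 UMIs) and 59.6 and 95.5 CPM in the anti-CD8 libraries (148 and 173 UMIs). Both anti-CD8 libraries lay above both IgG libraries, and anti-CD8 replicate 2 was the highest. The log2 difference was 1.30 (SE 0.22, adjusted p = 0.046, edgeR over 10396 genes). Of all genes, 71 (0.683%) were called in T cells, 56 higher and 15 lower, and 7 of the 29 members tested had an unadjusted p under 0.05, beside 12.2% of all genes. DESeq2 called 122 genes (1.17%) and, among the members, Hk2 alone. The call was lost where doublets were kept and the cells clustered again (0.41, adjusted p = 0.537) and with stricter limits on cells (1.29, adjusted p = 0.0515).

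Among the 28 members not called in T cells, 19 had a difference above 0 and 9 below 0, down to −0.36. Of all 29 members tested, Hk2 included, 13 were higher with anti-CD8 and 3 lower with no overlap between the groups. Of all genes, 23.4% and 19.1% had these patterns. Ero1a had 45.2 and 47.2 CPM with IgG and 68.1 and 75.7 CPM with anti-CD8, a log2 difference of 0.61 (SE 0.14, adjusted p = 0.104). Tpi1 had 34.6 and 42.8 against 60.8 and 58.0 CPM (0.58, adjusted p = 0.155), and Ndrg1 9.82 and 7.26 against 19.3 and 14.9 CPM (1.03, adjusted p = 0.177). The groups did not overlap for these 3. The median over the 29 members was 0.14, beside −0.01 over all genes.

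The T cells fell into 2 clusters that differed in several of these genes. Cluster 8 was led by Themis, Ccl5, Cd8b1 and Nkg7, and cluster 18 by Icos, Trdc, Il17a and Il23r, genes of T cells that make interleukin 17. Hk2 had 20.0, 14.3, 20.9 and 24.6 CPM in cluster 8 and 218, 185, 176 and 277 CPM in cluster 18. In the fit of cluster 18 against cluster 8, added after these values were seen, 10 members were higher and 3 lower of 27 tested, beside 12% and 11.1% of all 7929 genes (23.2% in either direction). The median was 0.30 for the members and −0.03 for all genes. Hk2 was higher by 3.41 (SE 0.16, adjusted p = 1.98e-11), Egln3 by 2.79 (SE 0.34), Slc16a3 by 2.23 (SE 0.45), Ero1a by 1.84 (SE 0.15) and Ndrg1 by 1.07 (SE 0.36), while Slc16a1 was lower, at −1.37 (SE 0.30). Ndrg1 lost its call without IgG replicate 2 (0.74, adjusted p = 0.263) and without anti-CD8 replicate 2 (1.00, adjusted p = 0.162). The members not called were Pdk1, Gpi1, Slc2a3, P4ha1, Mif, Pgam1, Higd1a, Hif1a, Tpi1, Pgk1, Ddit4, Pfkl, Ldha and Hk1, with differences from −0.39 to 0.43.

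The share of T cells in cluster 18 moved with the treatment. It was 6.29% of 334 T cells and 9.83% of 712 in the IgG libraries, and 25.6% of 418 and 25.0% of 260 in the anti-CD8 libraries. The 95% Wilson intervals, which cover counting error only, were 4.15% to 9.42% and 7.86% to 12.2% in the IgG libraries, and 21.7% to 30.0% and 20.1% to 30.6% in the anti-CD8 libraries. Within each cluster the Hk2 difference was smaller than in T cells as 1 class: 0.41 (SE 0.27, adjusted p = 0.735) in cluster 8 and 0.22 (SE 0.27, adjusted p = 1.00) in cluster 18. In cluster 8 edgeR called 0 of 27 members, with 4 at an unadjusted p under 0.05 (8.62% of all genes), beside 4 of 9858 genes called (0.0406%). In cluster 18 it called 0 of 24 members, with 0 at an unadjusted p under 0.05 (4.21% of all genes), and 0 of 6196 genes (0%). Cluster 18 held only 21 and 70 cells in the IgG libraries and 107 and 65 in the anti-CD8 libraries. Differences within it could therefore be missed. DESeq2 was not run within the clusters. The smallest p-values were those of Tpi1 (0.61, SE 0.17, adjusted p = 0.333) and Ddit4 (0.52, SE 0.18, adjusted p = 0.455) in cluster 8, and of Aldoa (−0.42, SE 0.21, adjusted p = 1.00) and Gapdh (0.45, SE 0.23, adjusted p = 1.00) in cluster 18.

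Other measures also moved with the treatment in T cells. The antibody's target gene Cd8b1 had 709 and 499 CPM with IgG and 273 and 170 CPM with anti-CD8 (log2 difference −1.47, SE 0.24, adjusted p = 0.0374), and Cd8a had 339 and 243 against 176 and 99.4 CPM (−1.09, SE 0.25, adjusted p = 0.107). The summed level of 12 genes of the dissociation-stress list, such as Fos and Jun, was 3487 and 3646 CPM with IgG and 4998 and 4974 CPM with anti-CD8. The 10 endothelial markers, all detected, summed to 74.7 and 91.4 against 121 and 141 CPM, and the 7 B cell markers, 2 of them at 0, to 17.3, 33.5, 645 and 31.5 CPM, with the high value in anti-CD8 replicate 1. Ndrg1, which was higher with anti-CD8 in T cells but not called, had far higher levels in endothelial cells than in T cells. The part of these measures in the differences of Hk2, Ndrg1 and the other members was not tested.

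**Figure D4:**
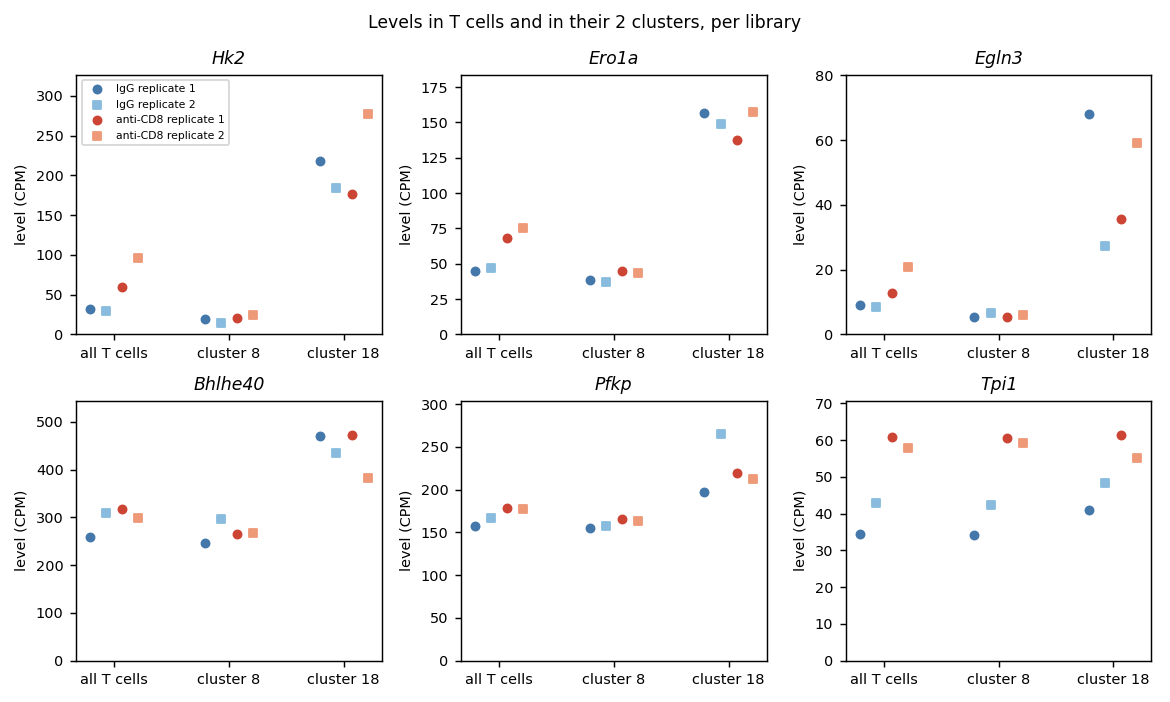
Levels in CPM of Hk2, Ero1a, Egln3, Bhlhe40, Pfkp and Tpi1 in all T cells and in T-cell clusters 8 and 18; each point is 1 library, with its colour and symbol in the legend. For Hk2 the anti-CD8 libraries lay above the IgG libraries in all T cells, while all 4 levels in cluster 18 (176 to 277 CPM) stood above those in cluster 8 (14.3 to 24.6 CPM).

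In the other 14 classes edgeR called 0 members, and DESeq2 also called 0. In microglia 4 of 30 members had an unadjusted p under 0.05, beside 7.31% of all genes, and edgeR called 0 of 16509 genes, DESeq2 25 (0.151%). Bhlhe40 had 38.9 and 41.7 CPM with IgG and 32.7 and 32.2 CPM with anti-CD8 (−0.36, SE 0.07, adjusted p = 0.673). Aldoa had 358 and 346 against 307 and 323 CPM (−0.21, SE 0.07, adjusted p = 0.676). The make-up of the microglia differed between libraries: interferon-high cluster 13 held 467 and 81 cells with IgG and 55 and 117 with anti-CD8. Cluster 1, the microglial cluster with the lowest enzyme sum, held 452 and 579 against 936 and 882 cells, and its part was not tested. In Spp1-high cells an unadjusted p under 0.05 was seen for 1 member and for 6.86% of all genes; edgeR called 0 of 15270 genes there and DESeq2 15 (0.0982%). There Slc16a1 had 12.5 and 11.2 against 14.8 and 15.9 CPM (0.33, SE 0.10, adjusted p = 0.640) and Pfkp 15.6 and 18.2 against 19.5 and 20.7 CPM (0.21, SE 0.10, adjusted p = 0.736).

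Cluster 0 had 4 members at an unadjusted p under 0.05 (8.08% of all genes), with 7 genes called by edgeR (0.0483%) and 32 by DESeq2 (0.221%). Its Bhlhe40 had 101 and 110 against 86.7 and 87.0 CPM (−0.33, adjusted p = 0.219), and its Pfkp 13.4 and 15.7 against 18.7 and 18.1 CPM (0.29, adjusted p = 0.470). Cluster 10 had 7 such members (7.44% of all genes), 8 genes called by edgeR (0.0649%) and 26 by DESeq2 (0.211%). Ndrg1 there had 2.63 and 2.22 against 8.07 and 6.00 CPM (1.44, SE 0.33, adjusted p = 0.208), and Slc16a3 53.9 and 56.3 against 40.6 and 42.8 CPM (−0.44, SE 0.11, adjusted p = 0.289). Cluster 2 had 3 such members (5.62% of all genes), 0 genes called by edgeR and 5 by DESeq2 (0.0384%), with Bhlhe40 at −0.38 (adjusted p = 0.576) and Ankrd37 at 0.57 (adjusted p = 0.839) first. Cluster 9 had 2 (5.48% of all genes), with 1 gene called by edgeR (0.00849%) and 2 by DESeq2 (0.017%), and Bhlhe40 at −0.40 and Hif1a at 0.23 first (adjusted p = 0.894 for both). Cluster 11 had 1 (2.27% of all genes), with 0 genes called by either tool, and Pfkfb3 at 0.53 and Bhlhe40 at −0.41 first (adjusted p = 1.00 for both).

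Among the vessel and neural classes, endothelial cells had 0 members at an unadjusted p under 0.05 (4.19% of all genes), with 0 genes called by edgeR and 4 by DESeq2 (0.0285%). Their 2 members of smallest p were Bhlhe40 (−0.21) and Adm (0.35), both with an adjusted p of 0.997. Cluster 16 had 1 such member (4.18% of all genes), 1 gene called by edgeR (0.00859%) and 3 by DESeq2 (0.0258%), with Slc2a3 at 0.85 and Bhlhe40 at −0.37 (adjusted p = 0.999 for both). Pericyte or smooth muscle cells had 2 such members (4.5% of all genes), 0 genes called by edgeR and 1 by DESeq2 (0.0128%). There Bhlhe40 had 247 and 347 against 173 and 175 CPM (−0.80, SE 0.22, adjusted p = 0.815) and Hk2 53.5 and 29.5 against 75.9 and 89.4 CPM (0.94, SE 0.32, adjusted p = 0.999). The dissociation-stress genes summed to 9548 and 11720 against 7215 and 6130 CPM in this class, and their part was not tested. Ependymal cells had 2 such members (2.3% of all genes), 1 gene called by edgeR (0.007%) and 10 by DESeq2 (0.07%), with Pfkfb3 at −0.60 and Pfkp at 0.34 (adjusted p = 1.00 for both).

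Neurons had 1 member at an unadjusted p under 0.05 (9.66% of all genes), with 45 genes called by edgeR (0.323%) and 138 by DESeq2 (0.989%). Pfkp had 68.7 and 78.0 against 51.1 and 46.6 CPM (−0.62, SE 0.16, adjusted p = 0.159), and Pfkl 23.7 and 24.8 against 35.9 and 29.4 CPM (0.40, SE 0.20, adjusted p = 0.581). The dissociation-stress genes summed to 1048 and 959.8 against 2278 and 1651 CPM in neurons, and their part was not tested. Proliferating cells had 2 such members (6% of all genes), 8 genes called by edgeR (0.0773%) and 14 by DESeq2 (0.135%). Egln3 there had 46.5 and 61.5 against 22.1 and 33.5 CPM (−0.93, SE 0.24, adjusted p = 0.388), and Slc2a3 12.9 and 13.5 against 18.3 and 23.2 CPM (0.64, SE 0.28, adjusted p = 0.806). Monocyte/macrophage-like cells had 22 members tested and 0 at an unadjusted p under 0.05 (3.83% of all genes), with 1 gene called by edgeR (0.0149%) and 0 by DESeq2. Hif1a was at −0.41 and Hk2 at −0.32 there (adjusted p = 1.00 for both).

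Bhlhe40 was called in no class, but its difference was below 0 in 13 of the 15 classes, with a median of −0.36 and a range from −0.80 to 0.09. In 7 classes the higher anti-CD8 library was still below the lower IgG library, a pattern that 13.8% of the tests of all genes over the 15 classes had, and in 6 the unadjusted p was under 0.05. The 15 values come from the same 4 libraries and are not independent. Fits that left out 1 library set 1 library against 2, with the spread taken from the other group alone. In such fits Bhlhe40 was called in cluster 2 without IgG replicate 1 (−0.53, adjusted p = 0.00135), and with replicate 2 of anti-CD8 left out in cluster 2 (−0.47, adjusted p = 0.0434) and cluster 9 (−0.68, adjusted p = 0.000224). Pfkp ran the other way, above 0 in 11 of 14 classes with a median of 0.24 and a range from −0.62 to 0.75. Of the lower enzymes, Pgam1 had differences between −0.13 and 0.11 over the 15 classes, Gapdh between −0.19 and 0.15, Aldoa between −0.21 and 0.17, Pkm between −0.15 and 0.29, Ldha between −0.22 and 0.26, Pgk1 between −0.29 and 0.26, Eno1 between −0.26 and 0.31 and Tpi1 between −0.12 and 0.58, with the highest Tpi1 value in T cells.

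**Figure D5:**
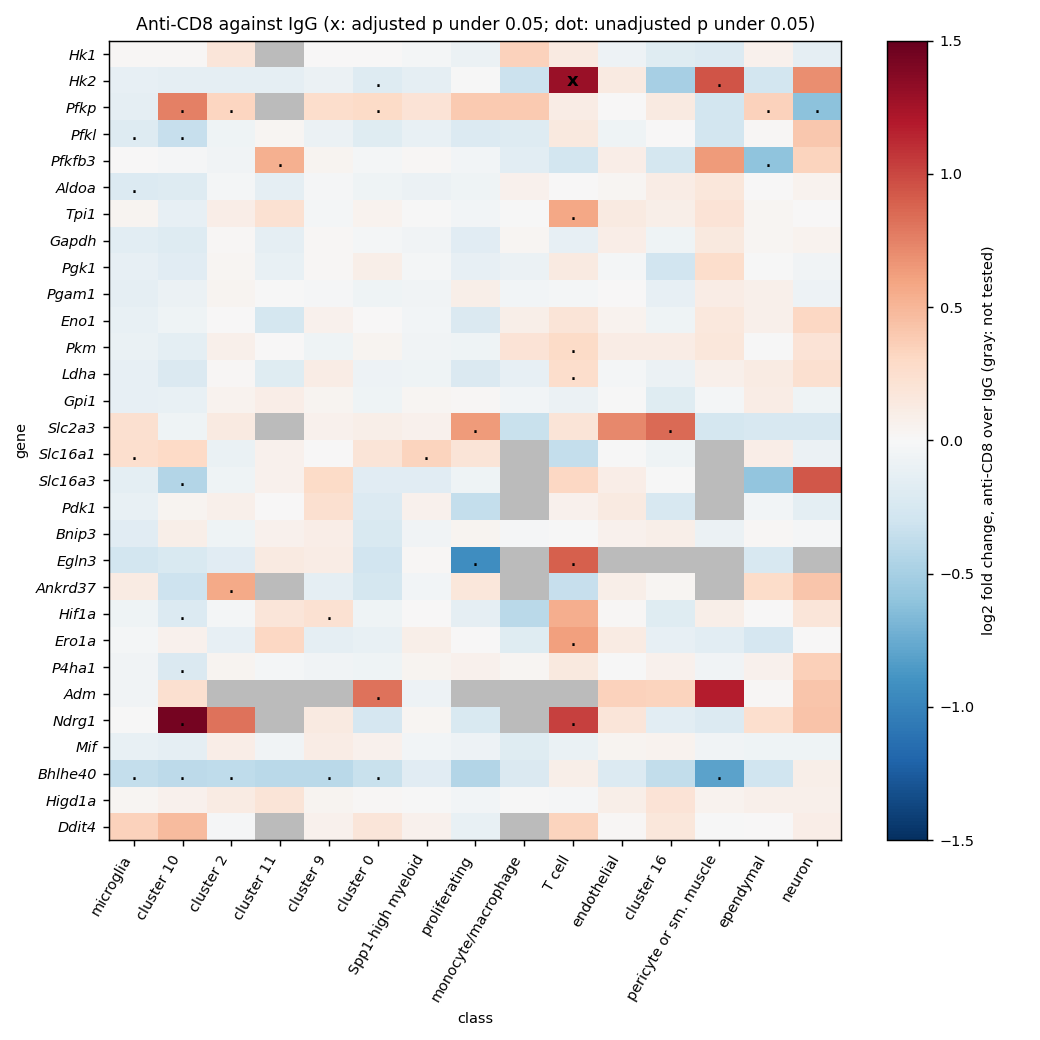
Log2 difference, anti-CD8 over IgG, of each member (rows) in each class (columns), on a colour scale from −1.5 to 1.5; x marks the 1 called difference, a dot an unadjusted p under 0.05, and gray a gene not tested. Bhlhe40 was below 0 in 13 of 15 classes, and Hk2 in T cells was the called value.

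Whether the antibody difference itself differed between myeloid classes was tested by an interaction of class and antibody. For Spp1-high cells against microglia edgeR called 0 of the 30 members and 0 of 16642 genes (0%), with 1 member and 733 genes (4.4%) at an unadjusted p under 0.05. Gpi1 had the smallest p there, with a difference of 0.16 (SE 0.07, adjusted p = 0.947). For monocyte/macrophage-like cells against microglia it called 0 members and 17 of 15455 genes (0.11%), with 1 member and 4.08% of all genes at an unadjusted p under 0.05; the member was Egln3, at −1.45 (SE 0.61, adjusted p = 1.00). DESeq2 was not run for the interaction. With replicate 2 of IgG left out, so that a single IgG library remained, 1 member was called in the first of these fits.

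Of the 65 other route symbols, 0 were called after anti-CD8 in any of the 15 classes by edgeR and 0 by DESeq2. Over 658 tests of such a gene in a class, 38 (5.78%) had an unadjusted p under 0.05 with edgeR and 11 (1.67%) with DESeq2. The tests of all genes gave 6.2% and 2.29%, so these shares were not above the background. Those with the 2 smallest p-values per class included Cited2, a coactivator inhibitor of HIF, at 0.75 (SE 0.14, adjusted p = 0.119) in proliferating cells and 0.33 (SE 0.10, adjusted p = 0.640) in Spp1-high cells. Slc2a1 was at 0.86 (SE 0.27, adjusted p = 0.267) in neurons, 0.81 (SE 0.37, adjusted p = 0.999) in pericyte or smooth muscle cells and −0.57 (SE 0.16, adjusted p = 0.500) in proliferating cells. Epas1 was at 0.51 (SE 0.18, adjusted p = 0.281) in T cells and 0.59 (SE 0.22, adjusted p = 0.676) in microglia. Hk3 in Spp1-high cells was at −0.28 (SE 0.07, adjusted p = 0.596), and Vegfa in pericyte or smooth muscle cells at −1.26 (SE 0.46, adjusted p = 0.999).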

How the data were processed

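Single-cell libraries of the cord lesion segment (2 IgG, 2 anti-CD8) were deposited by the authors as raw UMI counts per gene and barcode, made with Cell Ranger 7.1.0 on GRCm39, per the submitters' processing notes. How reads that map to several genes, such as those of Gapdh or Aldoa pseudogenes, were treated is not given in the sources used here. Barcodes under 300 genes or above 20% mitochondrial UMIs were left out, and the highest Scrublet scores (0.8% per 1000 cells) were removed. Cells were clustered in scanpy 1.11.5 (Python 3.11.15) on 3000 variable genes without the members, 30 principal components, 15 neighbours and Leiden (leidenalg 0.10.2) at resolution 1. The counts of all cells of a class were added up in each library, and CPM come from these sums.

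edgeR 4.0.16 (R 4.3.3; filterByExpr, TMM, quasi-likelihood) was the test, with Benjamini-Hochberg adjustment over all genes tested and calls at 0.05. In simulated T-cell counts it recovered 88% of 100 genes changed by 1 on the log2 scale and 100% of 100 changed by 2, with 12 false calls. The simulated spread was set to the same value for all genes and not taken from these libraries. The changed genes were drawn only from those with higher mean counts. The shares recovered therefore do not apply to members at low counts. DESeq2 1.42.0 was an alternative; others were RLE factors, no filter, doublets kept, stricter cells (1000 genes, 10% mitochondrial UMIs), members kept in the clustering, low-depth clusters left out, a replicate block and each library left out. For microglia, a fit without the interferon-high cluster 13 was also run. SE is the log2 difference over the root of F. The members and lists were chosen with earlier results of these data known. Named after anti-CD8 are called members and the 2 of smallest p per class; in class contrasts, called members with a log2 difference of at least 1 in size and members not called. Values of genes of the other lists and of further members are a choice made after they were seen. The fits of cluster 0, cluster 9 and the T-cell clusters were added after seeing the data. Per the labels the replicate numbers name libraries; the deviations of same-numbered libraries had a correlation of −0.0496 in microglia and −0.00228 in T cells.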

Additional observations from a re-analysis of the deposited data

How the results depend on the processing

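In the class comparisons, counts of members called in both directions together stayed within 1.5 times under every alternative run, but counts by direction did not. The higher count of cluster 9 fell from 15 to 8 with doublets kept and to 9 with the members in the clustering, and that of monocyte/macrophage-like cells went from 3 to 6 with RLE factors. The lower count of Spp1-high cells fell from 2 to 1 with replicate 1 of either group left out, and that of cluster 18 against cluster 8 went from 3 to 5 with no filter. Cluster 0 had no matching cluster with doublets kept. After anti-CD8 the counts were 0 or 1 and moved by single genes. In T cells 1 member was called as reported, 0 with doublets kept, 0 with stricter cells, 3 with no filter on low counts, and 1 to 2 when each library was left out, with 2 without anti-CD8 replicate 2. With no filter 1 member was called in each of cluster 0, cluster 2, cluster 10, microglia, neurons and proliferating cells, where the main count was 0. Fits with 1 library left out set 1 library against 2, so the spread comes from the other group alone and the single library is assumed to vary like it. In these fits the counts ranged from 0 to 2 in cluster 0 (2 without IgG replicate 1) and in ependymal cells (2 without IgG replicate 2), and from 0 to 1 in cluster 10 (without IgG replicate 1), cluster 2 (without IgG replicate 1 or anti-CD8 replicate 2), cluster 9 (without anti-CD8 replicate 2) and proliferating cells (without either IgG replicate or anti-CD8 replicate 2). They stayed at 0 in the other 8 classes. The interaction of Spp1-high cells with microglia ranged from 0 to 1, with 1 without IgG replicate 2. The causes were not tested.

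The libraries share replicate numbers, which nothing in the labels ties to a batch. With the number as a replicate block, 1 member was called in cluster 0 (Bhlhe40, −0.32, adjusted p = 0.00348, edgeR) and 1 in proliferating cells (Egln3, −0.97, adjusted p = 0.0447), both not called without it; Hk2 in T cells was called with it (1.31, adjusted p = 0.0345).

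As a share of microglia, the enzyme sum without Gapdh was 123% in cluster 10, 114% in cluster 16, 108% in endothelial cells, 143% in pericyte or smooth muscle cells and 152% in proliferating cells, against 126%, 98.2%, 89.9%, 128% and 183% with it. Without low-depth clusters pericyte or smooth muscle cells had 149%. That value came from cluster 24 (Acta2, Tagln) alone, because cluster 22 was left out, so it does not describe the same mix of cells. Members at low counts, such as Adm, Egln3 and Ndrg1 in small classes, limit what these libraries can show, and a gene not called is not shown to be unchanged.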
